A study of Mus musculus with 10 samples.

Results

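The cytosolic heat-shock chaperones were followed here as 10 genes picked by name: the HSP90 genes Hsp90aa1 and Hsp90ab1, the HSP70 genes Hspa1a, Hspa1b and Hspa8, the HSP110 gene Hsph1, the J-domain gene Dnajb1, and the small heat-shock protein genes Hspb1, Hspb8 and Cryab. All 10 were among the 24594 genes of the count table and all 10 passed the filter on low counts, which kept 14609 genes. Reads were counted in 10 RNA-seq libraries of mammary epithelial cells from wild-type C57BL/6J mice, 5 of luminal cells (the inner, hormone-sensing and milk-producing layer of the ducts) and 5 of basal cells (the outer, contractile layer). The labels name no treatment, transgene, sex or age, and the study describes its mice as adult. The study describes digestion of the tissue with enzymes over many hours. It then describes separation of luminal and basal cells by fluorescence-activated sorting by their EpCAM and CD49f staining. Whether these steps cover these libraries is uncertain, and no undigested tissue was measured.

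Library totals ran from 13203146 to 17998165 counts. Groups were taken from the cell type label, although each of the 10 titles gives the other cell type. All 9 luminal markers, Krt8 and Elf5 among them, were higher in the libraries labelled luminal, and all 7 basal markers, Krt14 and Trp63 among them, were higher in those labelled basal. Summed luminal markers ranged from 10038 to 14459 CPM (counts scaled to equal library size) in luminal and from 1358 to 1762 CPM in basal libraries, and summed basal markers from 28.0 to 79.5 CPM and from 10590.3 to 15051 CPM. Same-numbered luminal and basal libraries are read as 1 animal. In sorted cell pools a lower level can mean fewer cells with the transcript or less of it per cell, and these cannot be told apart.

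Heat-shock chaperones bind unfolded stretches of other proteins and keep them from clumping. HSP70 proteins take up clients handed to them by J-domain proteins, HSP110 proteins exchange the nucleotide that sets the client free, and HSP90 proteins finish the folding of kinases and steroid hormone receptors. Small heat-shock proteins hold unfolded clients without using ATP. Hsp90ab1 and Hspa8 are the constitutive forms of their families, whereas Hspa1a, Hspa1b, Hspb1, Dnajb1 and Hsph1 are classic targets of the heat-shock factor HSF1, which binds heat-shock elements, inverted repeats of GAA, and which is switched on by heat and by other stress.

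RefSeq promoter entries (assembly GRCm38.p6) were found for 6 of the 10 genes: Hspa1a, Hspa1b, Hsph1, Dnajb1, Hspb1 and Hspb8. The 250 bases before the start site are shown for a gene of the stress-inducible HSP70 pair, for Hspb1 and for Hspb8, since Hspb1 and Hspb8 belong to 1 family and differed in opposite directions between the cell types. For Hsph1, only the 28 bases around the element are shown. Capitals mark GAANNTTC or TTCNNGAA, a pair of adjoining GAA units. Each is its own reverse complement, so a match holds for both strands.
Hspa1a, chr17:34972157-34972406, minus strand: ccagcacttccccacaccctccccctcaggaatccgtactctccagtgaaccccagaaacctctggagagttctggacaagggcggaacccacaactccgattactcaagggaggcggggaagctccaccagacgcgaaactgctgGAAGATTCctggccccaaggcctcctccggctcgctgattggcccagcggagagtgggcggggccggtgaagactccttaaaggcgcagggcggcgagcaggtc
Hspb1, chr5:135887669-135887918, plus strand: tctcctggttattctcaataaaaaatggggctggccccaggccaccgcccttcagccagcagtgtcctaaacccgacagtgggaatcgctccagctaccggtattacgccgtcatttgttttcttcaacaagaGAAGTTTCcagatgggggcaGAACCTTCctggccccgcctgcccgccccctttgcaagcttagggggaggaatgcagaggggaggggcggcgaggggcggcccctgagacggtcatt
Hspb8, chr5:116422865-116423114, minus strand: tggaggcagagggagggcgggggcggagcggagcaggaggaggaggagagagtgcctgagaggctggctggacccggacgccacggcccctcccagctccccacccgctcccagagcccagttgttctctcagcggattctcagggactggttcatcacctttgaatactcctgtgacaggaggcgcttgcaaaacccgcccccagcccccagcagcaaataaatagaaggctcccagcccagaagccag
Hsph1, chr5:149636352-149636379, minus strand: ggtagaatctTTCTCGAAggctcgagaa
Hspa1a and Hspa1b held 1 such pair each, whose first base lay at position -104 from the start site in both, and their 250 bases differed at 3 positions. Hsph1 held 1 pair, Hspb1 held 2, and neither Dnajb1 nor Hspb8 held these letters in this window. Of 32851 promoters of the same length, 12.8% held GAANNTTC or TTCNNGAA. A run of 3 units (GAANNTTC followed by NNGAA, or TTCNNGAA followed by NNTTC), which contains the shorter motif, was in 0.466% of those promoters and in none of the 6 genes. These matches are letters in a sequence, and binding was not measured.

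Of the 10 chaperone genes, 9 were higher in luminal cells and 1, Hspb8, was higher in basal cells (edgeR quasi-likelihood test, Benjamini-Hochberg adjusted p under 0.05 over all genes tested). Across all 14609 genes, 33.6% passed this test as higher in luminal and 31.2% as higher in basal cells, and 64.8% in either direction. The call alone is therefore common in this comparison. A change of at least 2-fold in luminal direction was found for 8 members against a background of 20.9%, and in basal direction for 1 member, against 19.1%. The members were chosen with earlier results of these data known. The counts therefore describe these genes, and an excess over the background was not tested. The median log2 fold change, luminal against basal, was 1.34 over the members and 0.05 over all genes tested. Libraries of the cell types did not overlap for 7 members higher in luminal cells (background 24.7%) and for Hspb8 (background 25.3% in basal direction), and they overlapped for Hspa1a and Hspa1b. Within same-numbered pairs, 9 genes were higher in the luminal library in all 5 pairs and Hspb8 was lower in all 5. The share of all genes that did so was not counted. Libraries that do not overlap agree in every pair, so that share is at least 24.7% in luminal and 25.3% in basal direction.

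**Figure D1:**
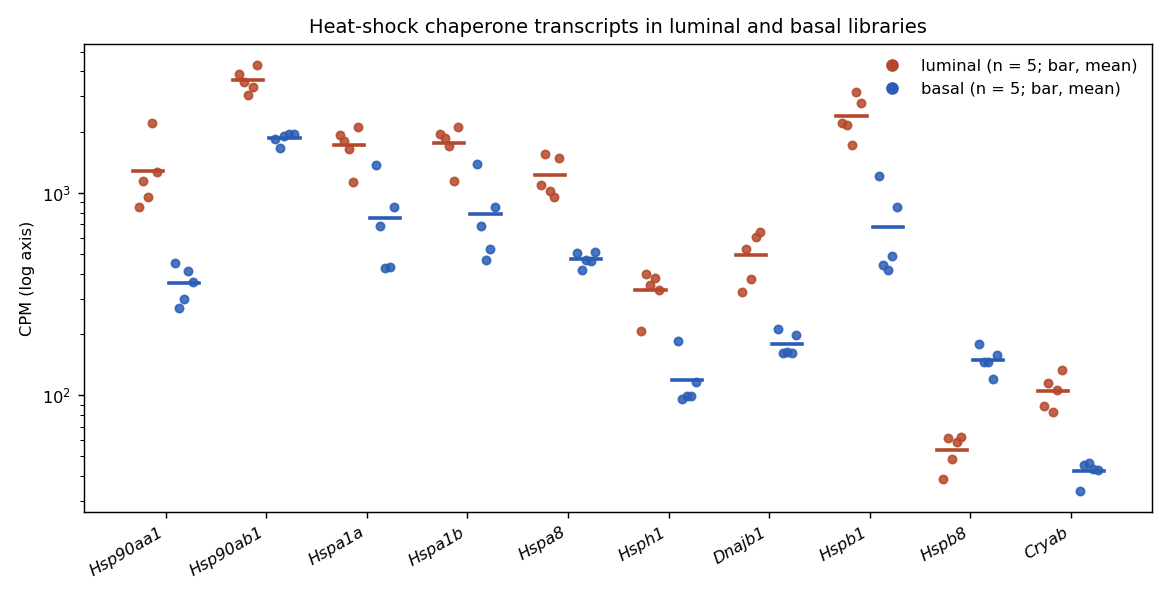
Transcript level of the 10 chaperone genes in CPM (log axis) in each luminal (n = 5) and basal (n = 5) library, with bars at the means. Luminal points lie higher for 9 genes, with overlap for Hspa1a and Hspa1b, and basal points lie higher for Hspb8.

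Together the 10 genes took 1.28% to 1.59% of all counts in luminal libraries (mean 1.38% ± 0.129, SD, n = 5) and 0.420% to 0.658% in basal libraries (0.505% ± 0.104, SD, n = 5). The lowest luminal library was thus above the highest basal library. The HSP90 genes held 0.521% ± 0.0449 of luminal and 0.208% ± 0.0165 of basal counts (SD, n = 5), and Hspa1a with Hspa1b held 0.374% ± 0.0847 and 0.143% ± 0.0661 (SD, n = 5). The HSP90 shares did not overlap between the cell types and the Hspa1a with Hspa1b shares did.

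Positions are those of RefSeq on GRCm38.p6, the assembly of mm10. Hsp90aa1 (NCBI gene 15519, chr12:110691036-110696395, minus strand), the stress-inducible HSP90, stood at 850.0, 1141, 954, 2216 and 1273 CPM in luminal replicates 1 to 5 and at 450.2, 270.4, 298, 413 and 364 CPM in basal replicates 1 to 5. Every luminal library was above every basal library, and luminal replicate 4 was far above the other luminal libraries. The log2 fold change was 1.84 (SE 0.26, edgeR adjusted p = 2.2e-05), and 9.72% of genes tested had a higher one. This was close to the value of Hspb1 given with the small heat-shock proteins. The order of these genes turned in several alternatives, among them the replicate block (1.78 against 1.93) and without luminal replicate 4 (1.55 against 1.70). With 1 library left out, Hspb1 reached up to 2.12 and Hsp90aa1 at most 1.98. Hsp90ab1 (NCBI gene 15516, chr17:45567778-45573261, minus strand), the constitutive HSP90, stood at 3889, 3534, 3048, 3349.8 and 4277 CPM in luminal and at 1842, 1673, 1917, 1960.5 and 1953 CPM in basal replicates 1 to 5. Its libraries did not overlap either, and its basal libraries lay close together. Its log2 fold change of 0.95 (SE 0.16, edgeR adjusted p = 0.00011) was the smallest of the 9 genes higher in luminal cells. The ratio of Hsp90aa1 to Hsp90ab1 counts was 0.219, 0.323, 0.313, 0.661 and 0.298 in luminal and 0.244, 0.162, 0.155, 0.211 and 0.186 in basal replicates 1 to 5. It was higher in the luminal library in 4 of the 5 pairs, with pair 1 the exception.

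Hspa8 (NCBI gene 15481, chr9:40801276-40805202, plus strand), the constitutive HSP70, stood at 1093, 1558, 1022, 953 and 1482 CPM in luminal and at 508, 414, 466, 459.6 and 512 CPM in basal replicates 1 to 5. The lowest luminal library was above the highest basal one. Hspa8 had a log2 fold change of 1.37 (SE 0.17, edgeR adjusted p = 9e-06). Hspa1a (NCBI gene 193740, chr17:34969359-34972156, minus strand) stood at 1945, 1814, 1642, 1138 and 2125 CPM in luminal and at 1378, 683, 428, 432 and 852 CPM in basal replicates 1 to 5. Hspa1b (NCBI gene 15511, chr17:34956429-34959238, minus strand) stood at 1954, 1878, 1707, 1148 and 2110.3 CPM in luminal and at 1387, 689, 465, 527 and 849 CPM in basal replicates 1 to 5. Both genes, the heat-inducible HSP70 pair in the major histocompatibility region, overlapped between the cell types, since basal replicate 1 was above luminal replicate 4. Log2 fold changes were 1.20 for Hspa1a (SE 0.30, edgeR adjusted p = 0.0031) and 1.17 for Hspa1b (SE 0.28, edgeR adjusted p = 0.0021). Without basal replicate 1 they were 1.52 and 1.46. Counts of Hspa1a and Hspa1b together were 2.37 to 3.57 times those of Hspa8 in luminal and 1.91 to 5.45 times in basal libraries, ranges that overlap, with the luminal library higher in 2 of the 5 pairs.

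Hspa1a and Hspa1b are each encoded in 1 exon, and their coding sequences (GENCODE M21) were 99.5% identical, with 7 mismatches and 3 gap bases. Of the 51-base windows of Hspa1b, 1708 of 2753 occurred letter for letter in Hspa1a, and none of the Hspa8 windows did. The study's methods give 51-base single-end reads, and how reads were divided between Hspa1a and Hspa1b is uncertain. Their ratio was 0.962 to 1.007 in luminal and 0.819 to 1.003 in basal libraries. With both summed into 1 gene, the log2 fold change was 1.18 (SE 0.29, edgeR adjusted p = 0.0028).

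Hsph1 (NCBI gene 15505, chr5:149616843-149636498, minus strand), the HSP110 exchange factor, stood at 208, 398, 349.8, 379 and 332 CPM in luminal and at 186, 96.3, 99.7, 99.8 and 116 CPM in basal replicates 1 to 5. Both libraries numbered 1 stood out, the luminal one as the lowest and the basal one as the highest of its cell type, and still did not overlap. Hsph1 had a log2 fold change of 1.48 (SE 0.22, edgeR adjusted p = 3.8e-05). Dnajb1 (NCBI gene 81489, chr8:83608175-83612653, plus strand), the stress-inducible J-domain partner of HSP70, stood at 325, 528, 376, 607 and 645 CPM in luminal and at 212, 162, 164, 162 and 199 CPM in basal replicates 1 to 5. The luminal libraries spread over 1.98-fold and the basal ones over 1.31-fold, without overlap. Dnajb1 had a log2 fold change of 1.46 (SE 0.20, edgeR adjusted p = 1.6e-05).

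The small heat-shock protein genes split by direction. Hspb1 (NCBI gene 15507, chr5:135887919-135889563, plus strand), which binds actin filaments and unfolded clients, stood at 2206, 2158, 1719, 3149.7 and 2799 CPM in luminal and at 1214, 440.0, 417, 487 and 854 CPM in basal replicates 1 to 5. Basal replicates 1 and 5 were above the other basal libraries and below every luminal one. The log2 fold change was 1.82 (SE 0.30, edgeR adjusted p = 0.00011). Cryab (NCBI gene 12955, chr9:50745951-50756636, plus strand), alpha-B-crystallin, stood at 88.9, 115, 82.4, 107 and 134 CPM in luminal and at 33.8, 45.1, 46.4, 43.1 and 43.0 CPM in basal replicates 1 to 5. Here basal replicate 1 was the lowest basal library, and the groups did not overlap. The log2 fold change of Cryab was 1.32 (SE 0.16, edgeR adjusted p = 4.2e-06).

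Hspb8 (NCBI gene 80888, chr5:116408491-116422864, minus strand), which works with the co-chaperone BAG3 in clearing damaged proteins from contractile cells, ran the other way. It stood at 38.5, 61.3, 48.5, 58.6 and 62.6 CPM in luminal and at 179, 146, 146, 119.9 and 159 CPM in basal replicates 1 to 5. Every basal library was above every luminal library. The log2 fold change was -1.48 (SE 0.16, edgeR adjusted p = 1.9e-06), which is 2.78-fold higher in basal cells, and 86.6% of genes tested had a higher value. Per count of Hspb1, Hspb8 had 0.0175 to 0.0284 counts in luminal and 0.147 to 0.351 in basal libraries, without overlap. Cryab per count of Hspb1 overlapped between the cell types, at 0.0339 to 0.0534 in luminal and 0.0278 to 0.111 in basal libraries.

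Levels were compared between genes as CPM per kilobase of the longest coding transcript. In luminal libraries Hspb1 was highest, at 2587 ± 609, followed by Hsp90ab1 at 1436 ± 189 (SD, n = 5), and these ranges did not overlap. Hspa1b (628 ± 132), Hspa1a (584 ± 127), Hspa8 (510.3 ± 116) and Hsp90aa1 (392 ± 166) came next (SD, n = 5 for each), and neighbours in this order lay within their spread. Dnajb1 followed at 166 ± 46.9, below every Hsp90aa1 value, then Cryab at 94.4 ± 18.4 and Hsph1 at 87.7 ± 19.6, whose ranges overlapped in that order, and Hspb8 was lowest at 29.7 ± 5.64 (SD, n = 5). In basal libraries Hsp90ab1 (742 ± 47.3) and Hspb1 (734 ± 372) headed the order within their spread (SD, n = 5). Hspa1b (279 ± 132), Hspa1a (254 ± 132) and Hspa8 (197 ± 16.7) overlapped, with Hsp90aa1 below them at 109 ± 23.0 (SD, n = 5). Hspb8 at 82.6 ± 11.9 overlapped with Hsp90aa1 above it and Dnajb1 (60.0 ± 7.95) under it, and Cryab (37.9 ± 4.44) and Hsph1 (31.4 ± 9.96) came last and overlapped with each other (SD, n = 5). Hspb8 thus moved from the lowest to the seventh place. With the length of all exons joined in place of the longest coding transcript, Hsp90aa1 (327) came before Hspa8 (284) in luminal libraries and Hspb1 (662) before Hsp90ab1 (623) in basal libraries.

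Some of these levels rest on sequence that is not unique. Of all 51-base windows of the longest coding transcript, 74.6% in Hspa8, 66.1% in Hspa1a, 62.0% in Hspa1b, 58.3% in Hsp90aa1 and 51.5% in Hspb1 also occurred in another gene of GENCODE M21. For Hspa1a and Hspa1b these were chiefly each other, and for Hspa8, Hsp90aa1 and Hspb1 they were processed copies and 2 genes annotated across such copies, Gm26825 and Gm9817. The share was 18.9% in Cryab, whose first exons lie across the oppositely oriented Hspb2, 4.25% in Hsp90ab1, 0.373% in Dnajb1 and 0% in Hsph1 and Hspb8. Hsph1 and Hspb8, which shared no windows, differed in opposite directions between the cell types.

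The processed Hsp90aa1 copy Gm12346 (chr11:77293444-77295898) shares 51.2% of the Hsp90aa1 windows and lies inside Ssh2, which encodes a phosphatase of cofilin, with 0 of its 2455 bases in an annotated exon of Ssh2. Counts of Ssh2 were 75.0% to 89.7% of those of Hsp90aa1 in every library, luminal and basal, and of 10071 genes compared, Ssh2 had the pattern nearest to Hsp90aa1 (root mean square difference of centred log2 values 0.083 over 10 libraries). The copy Gm8355 of Hspa8 (chr10:14745362-14747302), which shares 45.5% of the Hspa8 windows, lies inside 1700016L04Rik in RefSeq and, in GENCODE M21, inside Nmbr, the neuromedin B receptor gene, with 0 of its bases in an annotated exon of Nmbr. RefSeq places Nmbr beside 1700016L04Rik and outside the copy. The counts of 1700016L04Rik and Nmbr were identical in all 10 libraries and were 39.5% to 43.4% of those of Hspa8. Their pattern was also the nearest to Hspa8 (difference 0.048). Hspa1l, the HSP70 gene next to Hspa1a, shares 228 windows with it and stood at 4.19% to 6.10% of its counts. The part of shared reads in the values of Ssh2, Nmbr, 1700016L04Rik, Hspa1l or the chaperones themselves was not tested.

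**Figure D2:**
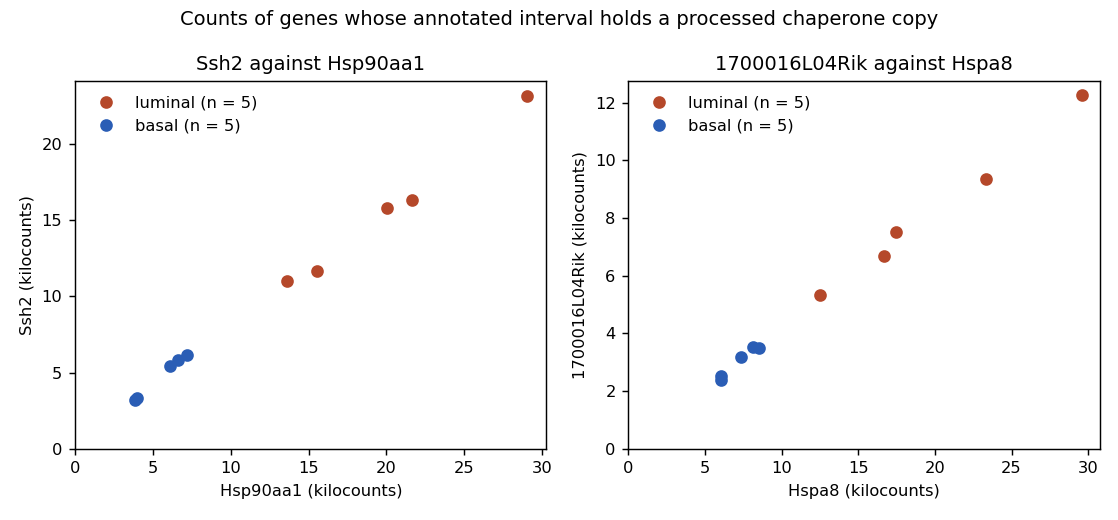
Counts of Ssh2 against Hsp90aa1 (left) and of 1700016L04Rik against Hspa8 (right), on axes scaled to kilocounts, with 1 point for each luminal (n = 5) and basal (n = 5) library. Ssh2 lies at 75.0% to 89.7% of Hsp90aa1 and 1700016L04Rik at 39.5% to 43.4% of Hspa8 in all 10 libraries.

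By the same measure and a fixed rule, the 2 nearest genes outside the 10 were taken for each other member that changed at least 2-fold, which left out Hsp90ab1. Cryab lay nearest to Uchl5 (0.090) and Ola1 (0.11), Hspb8 to Pmepa1 and Schip1 (0.12 each) and Dnajb1 to Faf1 and Pmvk (0.18 each). Hsph1 lay nearest to Faf1 (0.24) and Osbpl3 (0.25), Hspb1 to Id3 (0.27) and Phlda1 (0.31), and Hspa1a and Hspa1b to Hspa1l (0.15 and 0.16) and then Tef (0.29 and 0.28). Hsp90aa1 came second nearest to Mrps21 (0.24). Within the 10, the closest pairs were Hspa1a with Hspa1b (0.086), Hspa8 with Cryab (0.23) and Hsp90ab1 with Cryab (0.25), followed by Hsph1 with Dnajb1 (0.26), and Hspb8 was far from all (1.24 to its nearest, Hsp90ab1). All of these are descriptions over 10 libraries that share the cell type difference.

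The spread within a cell type also differed between the members. Over 10081 genes of at least 10 CPM on average, the median SD of log2(CPM + 1) was 0.284 in luminal and 0.230 in basal libraries (n = 5 each). Among basal libraries, Hspa1a had an SD of 0.71, Hspb1 of 0.68 and Hspa1b of 0.62 on this scale, more than 99.0%, 98.8% and 98.3% of those genes. Hsp90ab1 had a basal SD of 0.095, more than 6.01% of them, and Hspa8 of 0.12, more than 12.6%. Among luminal libraries Hspa8 did not stand apart in this way, with an SD of 0.32, more than 60.0% of genes, against 0.34 (64.0%) for Hspb1 and 0.35 (65.6%) for Hspa1a. Dnajb1 (0.19), Hsp90aa1 (0.31) and Hsph1 (0.39) lay in between among basal libraries. Among luminal libraries the widest was Hsp90aa1, at 0.54, more than 89.6% of those genes.

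Basal replicate 1 held the highest basal value for 7 of the 10 members and the lowest for Cryab. It also held the highest basal value for 9 of 12 immediate-early genes, a group that rises within minutes of many stimuli, tissue digestion among them. Luminal replicate 5 held the highest luminal value for 6 members and, on the scale of log2(CPM + 1), was above the luminal mean for all 10. On that scale its same-numbered library, basal replicate 5, was above the basal mean for all 10, for Hsph1 by only 0.0037. In CPM itself, luminal replicate 5 was below the luminal mean for Hsp90aa1 (1273 against 1287) and Hsph1 (332 against 333), and basal replicate 5 below the basal mean for Hsph1 (116 against 119.5). Luminal replicate 4 had the highest Hsp90aa1 and Hspb1 and the lowest Hspa1a, Hspa1b and Hspa8, so inducible genes stood at both ends there. Without both libraries numbered 1, an alternative chosen after seeing the data, 9 members were higher in luminal cells and 1 was higher in basal cells, as with all libraries. In that fit, 4630 of all genes passed as higher in luminal cells and 4341 as higher in basal cells.

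**Figure D3:**
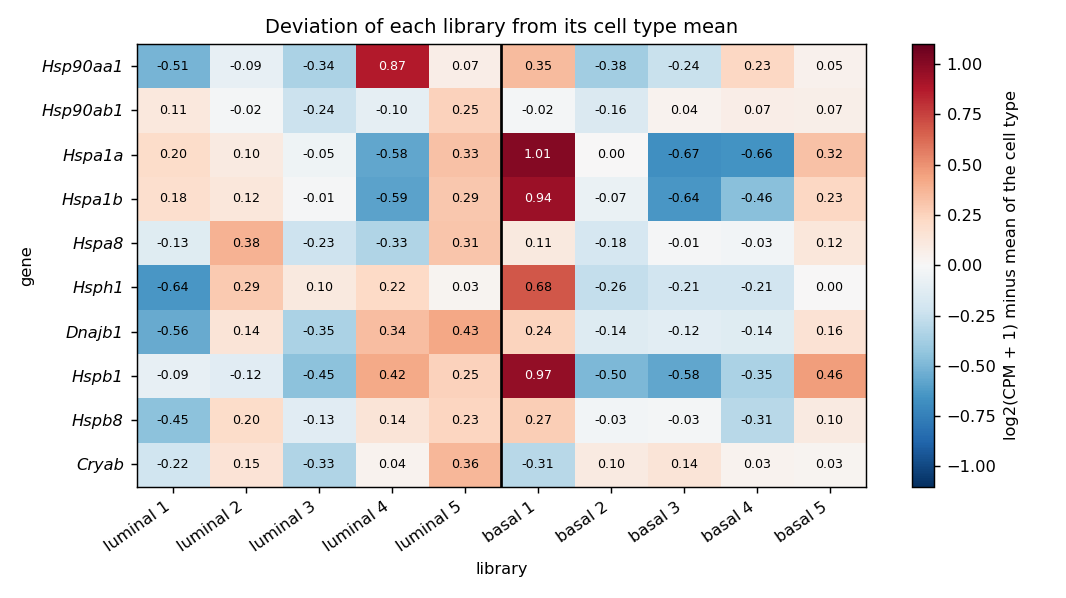
Difference of each library's log2(CPM + 1) from the mean of its own cell type, for the 10 genes (rows) and 10 libraries (columns), with red above and blue below the mean. Basal replicate 1 lies 0.68 to 1.01 above its mean for Hspa1a, Hspa1b, Hspb1 and Hsph1, and luminal replicate 4 lies 0.87 above for Hsp90aa1 and 0.58 below for Hspa1a.

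The genes that regulate and assist these chaperones were called in both directions. Over all genes tested, 33.6% passed as higher in luminal and 31.2% as higher in basal cells. Calls in both directions are therefore common in this comparison, which holds for each list below. Of 6 genes listed around the heat-shock factors, Hsf3, Hsf5 and Hsbp1, which encodes a protein that binds HSF1 and is no factor itself, were higher in luminal cells. The other 3, Hsf1, Hsf2 and Hsf4, were higher in basal cells. Hsf1, the main stress-responsive factor, ranged from 26.2 to 30.3 CPM in luminal and from 36.1 to 46.5 CPM in basal libraries, without overlap, and its log2 fold change was -0.52 (SE 0.13, edgeR adjusted p = 0.0027). Hsf2 ranged from 5.25 to 9.16 CPM and from 10.3 to 17.3 CPM, also without overlap (log2 fold change -0.98, SE 0.21, edgeR adjusted p = 0.00089). Of all genes tested, 31.0% had a lower log2 fold change than Hsf1 and 20.2% a lower one than Hsf2. Both factor genes were lower in the cell type where 9 of the 10 chaperone genes were higher. The activity of these factors was not measured, and a link between their transcripts and the chaperone levels was not tested. Hsf3 was barely detected, at 0.698 to 2.29 CPM in luminal and 0.409 to 0.811 CPM in basal libraries (log2 fold change 1.16, SE 0.45, edgeR adjusted p = 0.036). The Hsf3 call was lost with the replicate block (adjusted p = 0.090), with limma voom (0.073), with no filter on low counts (0.10) and when any of basal replicates 2 to 5 or luminal replicates 3 and 4 was left out (adjusted p = 0.052 to 0.11). The Hsf4 call was lost with library totals only (adjusted p = 0.0996), with upper-quartile factors (0.065) and without basal replicate 2 or 4 or luminal replicate 1 or 5 (0.069 to 0.081). The Hsf5 call was lost without basal replicate 1, 2 or 3 or luminal replicate 4 (0.054 to 0.060). Without both libraries numbered 1, both were lost (0.086 for Hsf4 and 0.098 for Hsf5). Without basal replicate 2, only 3 of the 6 genes passed, namely Hsf1, Hsf2 and Hsbp1.

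Of 14 HSP90 co-chaperone genes, 4 were higher in luminal cells, 4 in basal cells and 6 did not pass. Fkbp5, a glucocorticoid-induced immunophilin that tunes steroid receptors, ranged from 18.2 to 62.2 CPM in luminal and from 2.05 to 7.31 CPM in basal libraries (log2 fold change 2.87, SE 0.38, edgeR adjusted p = 1.5e-05). Unc45a, a myosin chaperone, ranged from 48.7 to 71.2 CPM in luminal and from 186 to 264 CPM in basal libraries (log2 fold change -1.98, SE 0.15, edgeR adjusted p = 3.6e-08). Of 9 J-domain genes other than Dnajb1, 4 were higher in luminal cells and 1 in basal cells. Dnaja4 ranged from 81.8 to 216 CPM in luminal and from 23.4 to 31.7 CPM in basal libraries (log2 fold change 2.20, SE 0.24, edgeR adjusted p = 2e-06), whereas Dnajb5 ranged from 1.90 to 4.43 CPM and from 12.9 to 23.3 CPM (log2 fold change -2.67, SE 0.26, edgeR adjusted p = 7e-07). Scaling by library totals only, which moved the median of all genes by 0.19 on the log2 scale, gave 7 co-chaperone genes higher in luminal cells and 3 in basal cells. The calls over all genes also moved with it, to 5705 higher in luminal cells and 3705 in basal cells from 4904 and 4558.

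Of 7 other HSP70 and HSP110 genes, 1 was higher in luminal cells and 3 in basal cells. The luminal one was Hspa1l (log2 fold change 1.08, SE 0.31, edgeR adjusted p = 0.0067), which shares windows with Hspa1a. Hspa2 ranged from 27.0 to 58.0 CPM in luminal and from 99.9 to 106 CPM in basal libraries (log2 fold change -1.38, SE 0.19, edgeR adjusted p = 2e-05). Hspa12a, 1 of the 3, was barely detected, at 0.444 to 1.42 CPM in luminal and 1.32 to 2.09 CPM in basal libraries, with overlap. It passed at an edgeR adjusted p of 0.049 and missed with the replicate block (adjusted p = 0.055). It missed too when any library but luminal replicate 2 was left out (adjusted p = 0.053 to 0.11). It also missed with library totals only (adjusted p = 0.12), with upper-quartile factors (0.082) and with no filter on low counts (0.076). Without both libraries numbered 1 it missed as well (0.11). With library totals only, 2 of these genes were higher in luminal cells and 2 in basal cells, against 5705 and 3705 over all genes.

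Of 9 exchange factors and adaptors of HSP70, 3 were higher in luminal cells and 4 in basal cells, with St13 (log2 fold change 0.86, SE 0.12, edgeR adjusted p = 1.5e-05) and Bag2 (log2 fold change -2.26, SE 0.17, edgeR adjusted p = 3.8e-08) at the ends. Leaving out basal replicate 1, basal replicate 2 or luminal replicate 5 left 4 of the 7 calls each time. Bag3, the partner of HSPB8 and itself a target of HSF1, stood at 209, 157, 173, 156 and 242 CPM in luminal and at 241, 192, 176, 157 and 217 CPM in basal replicates 1 to 5. Its groups overlapped almost wholly, and the log2 fold change of -0.07 did not pass (SE 0.16, edgeR adjusted p = 0.74). It turned to 0.13 with library totals only, to 0.05 with upper-quartile factors, and to 0.00 without basal replicate 1 or without luminal replicate 2. The difference between the changes of Hspb8 and Bag3 was not tested.

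Of 6 other small heat-shock protein genes, 2 were detected well enough to be tested. Hspb6, a muscle-enriched member, was higher in basal cells, at 18.8 to 26.5 CPM against 2.21 to 8.57 CPM (log2 fold change -1.97, SE 0.28, edgeR adjusted p = 2.5e-05), as Hspb8 was. Of 8 subunits of TRiC, the chaperonin that folds actin and tubulin, 1 passed (Cct3, log2 fold change -0.46, SE 0.14, edgeR adjusted p = 0.011). That result depended on the scaling: with library totals only, 4 subunits were higher in luminal cells and Cct3 missed (log2 fold change -0.27, adjusted p = 0.11), and with upper-quartile factors 3 were higher in luminal cells and 1 in basal cells. Over all genes these scalings gave 5705 against 3705 calls and 5439 against 4051 calls, each with more in luminal cells, against 4904 and 4558 as tested. Without basal replicate 4, 2 were higher in luminal cells and 1 in basal cells, and without luminal replicate 3 it was 1 in each direction. Of 6 mitochondrial chaperone genes, 4 were higher in luminal cells, Hspe1 the most (log2 fold change 1.64, SE 0.31, edgeR adjusted p = 0.00029), and 2 were higher in basal cells. The latter held Hspa9, the mitochondrial HSP70, at 207 to 297 CPM in luminal and 1199.6 to 1499 CPM in basal libraries (log2 fold change -2.38, SE 0.16, edgeR adjusted p = 1.4e-08).

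**Figure D4:**
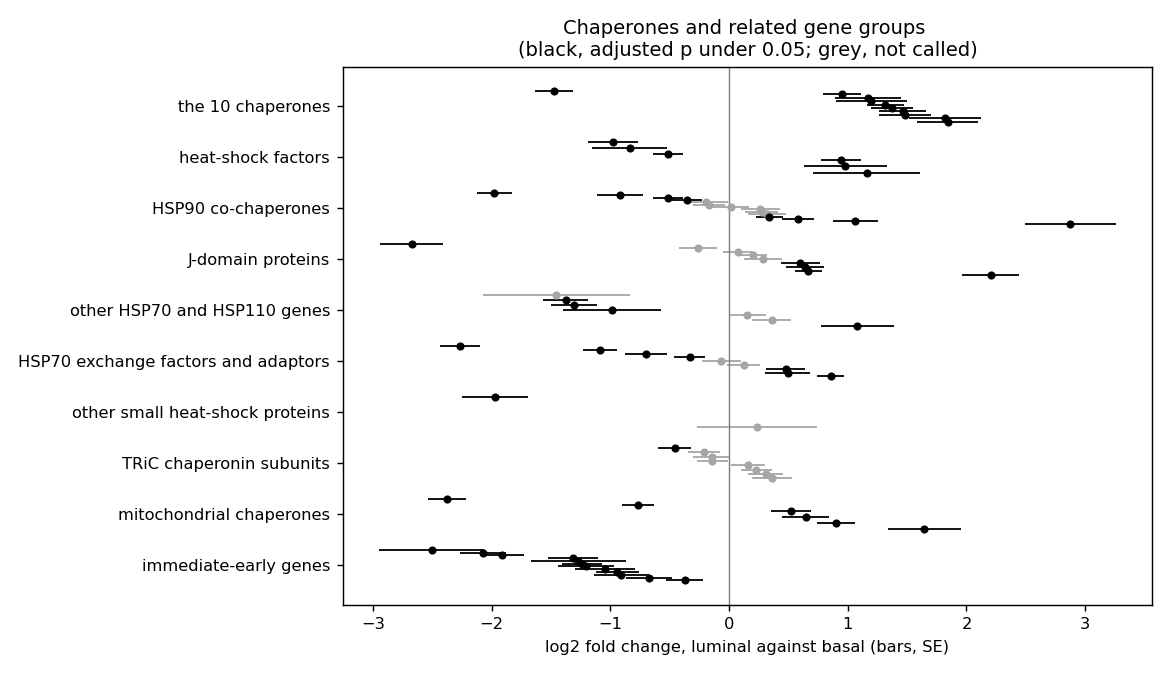
Log2 fold change, luminal against basal, with its SE for the 10 chaperone genes and for 9 related gene groups, in black where the edgeR adjusted p was under 0.05 and in grey elsewhere. The 10 chaperone genes lie at 0.95 to 1.84 with Hspb8 at -1.48, the TRiC subunits lie at -0.46 to 0.36, and all immediate-early genes lie below 0.

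All 12 immediate-early genes were higher in basal cells, against 31.2% of all genes tested. Their summed level was 2546 to 3424 CPM in luminal and 5021 to 8784 CPM in basal libraries, without overlap, highest in basal replicate 1. Nr4a1 ranged from 35.4 to 109 CPM in luminal and from 156 to 861 CPM in basal libraries (log2 fold change -2.51, SE 0.44, edgeR adjusted p = 0.00019). Junb, the weakest of the 12, missed with the replicate block (adjusted p = 0.062) and in 7 of 10 fits without 1 library, basal replicate 1 among them (adjusted p = 0.063 to 0.11). It also missed with a minimum of 10 counts in every library (adjusted p = 0.058), with upper-quartile factors (log2 fold change -0.25, adjusted p = 0.17) and with library totals only (-0.18, adjusted p = 0.31), against -0.37 as tested. Without both libraries numbered 1, Junb (adjusted p = 0.13) and Fosb (adjusted p = 0.079) missed, which left 10 of the 12. The part of stress from digestion and sorting in the chaperone levels was not tested.

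The sort that the study describes set aside cells with erythroid, endothelial or leukocyte surface markers. Some genes listed as markers of other cell types differed between the groups. Summed skeletal muscle markers (6 genes, 2 of them tested) ranged from 11.9 to 20.3 CPM in luminal and from 70.7 to 134 CPM in basal libraries, with the actin gene Acta1 making up the basal excess and 2 of the 6 at 0 in every basal library. Mb (12.7 against 3.97 CPM on average) and Ckm (1.71 against 0.115 CPM, not tested) were instead higher in luminal libraries, both without overlap. Mural markers (5 genes) ranged from 94.9 to 268 CPM in luminal and 26.2 to 40.4 CPM in basal libraries, and the pericyte genes Rgs5, Cspg4 and Kcnj8 among them were higher in basal cells, while Notch3 made up nearly all of the luminal sum. Endothelial (3 genes), immune (3 genes) and adipocyte (3 genes) sums reached at most 12.4, 33.6 and 8.88 CPM in any library, and each was higher in basal libraries. Among the 2 immune markers tested, Cd74 was higher in basal cells (20.7 against 2.62 CPM) and Cd52 in luminal cells (4.65 against 1.13 CPM). Schwann cell (5 genes) and fibroblast (4 genes) sums overlapped, at 360.1 to 459.4 and 17.8 to 107 CPM over all 10 libraries. Within the Schwann cell list, Sox10 was higher in basal cells (303 against 104 CPM on average) and Mbp in luminal cells (288 against 113 CPM), both without overlap. Of the fibroblast genes, Pdgfra was higher in basal cells (12.4 against 5.82 CPM, without overlap) and Dcn in luminal cells (38.3 against 12.0 CPM, with overlap). Dcn ranged from 11.6 to 95.1 CPM in luminal libraries, highest in luminal replicate 1. The erythrocyte gene Hba-a1, 1 of 2 listed, ranged from 3.37 to 15.9 CPM in luminal and from 0 to 0.188 CPM in basal libraries. Whether these marker values come from such cells or from the luminal and basal cells themselves was not tested. A part of other cells in the chaperone values was not tested either.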

How the data were processed

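Raw counts of reads for each gene, not normalized, were deposited for 10 libraries. Per the labels' processing notes, cutadapt 4.2 and Bowtie2 2.3.5.1 were used, and the builds hg19 and mm10 are named. The study describes single-end reads of 51 bases but fewer replicates per condition than here, so whether its steps cover these libraries is uncertain. The study's methods name Bowtie2 with its default settings. The counting tool, its annotation and strand setting, and how it treated reads with several matches are not given in the sources used here. Entrez identifiers were matched to symbols and positions in RefSeq (GRCm38.p6, the assembly of mm10) for 24570 of 24594 genes. Copies were sought as exact 51-base windows in GENCODE M21.

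Groups follow the cell type label. Counts were filtered with filterByExpr of edgeR 4.0.16 in R 4.3.3 (minimum count 10, minimum total 15, which dropped 9985 genes) and scaled with TMM. The quasi-likelihood test had cell type as its only term, with Benjamini-Hochberg adjustment over 14609 genes. SE was taken as the absolute log2 fold change over the root of F. CPM uses TMM-scaled totals. The pairing comes from the leading number of the library description, shared within a pair and read as the animal. Same-numbered libraries had a mean correlation of deviations of 0.037, against -0.0063 for others, with 2 of 5 pairs over 0.1. Where the labels do not name animals, p-values measure the spread between these libraries.

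The members and lists were chosen with earlier results of these data known. Named genes are the 10 members, Hsf1, Hsf2, Bag3, the largest called change in each direction of each list and the 2 nearest patterns of each member that changed at least 2-fold. Junb, Fosb, Hspa12a, Hsf4, Hsf5, Hsbp1 and the markers were named after their values were seen. Alternatives were other scalings (DESeq2 size factors, upper quartile, library totals), filters, DESeq2 1.42.0, limma 3.58.1 (voom), a replicate block, each library left out and Hspa1a with Hspa1b summed. The tests were tested on simulated data with known changes. There edgeR recovered 37 of 67 changes of 1.5-fold, 63 of 67 of 2-fold and 65 of 66 of 4-fold, with 6 false calls. Small changes were thus often missed. The simulation gave all genes the same spread and had no pairing, so these rates may not hold for the real data.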

Additional observations from a re-analysis of the deposited data

Results flagged for a closer look

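In 8 of 100 groups of 5 libraries examined, 1 library lay far from the other 4 by Dixon's criterion. Chance puts about 1 in 20 groups there, or 5 of 100. Basal replicate 1 did so for Hsph1, at 185.8 CPM against 96.3 to 116 CPM in the other basal libraries, for the ratio of Hsph1 to Hspa8, at 0.366 against 0.214 to 0.232, for Hspa9, at 1499 CPM against 1199.6 to 1239.7 CPM, and on the low side for Cryab, at 33.8 CPM against 43.0 to 46.4 CPM. Luminal replicate 4 did so for the ratio of Hsp90aa1 to Hsp90ab1, at 0.661 against 0.219 to 0.323, for Ssh2, at 1766 CPM against 689.7 to 1001 CPM, and for Hsf3, at 2.29 CPM against 0.698 to 1.11 CPM, a level of few counts. Basal replicate 4 did so for Mrps21, at 20.8 CPM against 11.3 to 13.2 CPM.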

How the results depend on the processing

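For the 10 chaperone genes, all 198 alternative values kept the direction and the call, with a highest adjusted p of 0.0098 (edgeR, Hspa1a without 1 library). With the replicate number as a block, 9 members were higher in luminal cells and 1 was higher in basal cells, and over all genes 4740 and 4539 passed against 4904 and 4558 without it. The block took the call from Hsf3, Hspa12a and Junb, as given above. Of 817 alternative values of the 41 genes chosen by the naming rule, 803 kept direction and call, 10 lost the call (Hsf3 in 9 and Cct3 in 1) and 4 turned sign, all of Bag3, at 0.126 (library totals), 0.0548 (upper quartile), 0.0042 (without basal replicate 1) and 0.0018 (without luminal replicate 2). Its values with 1 library left out ran from -0.176 to 0.0042. TRiC subunits passing were 4 with library totals only and 4 with upper-quartile factors, in place of 1, and 1 to 3 with a library left out. With a library left out, exchange factors passing ran from 4 to 7 in place of 7, and the factor genes with Hsbp1 from 3 to 6 in place of 6. The cause of these changes was not tested. Library totals only and upper-quartile factors moved the median of all genes by 0.19 and 0.12 on the log2 scale. Each of the members had at least 542 counts in every library, and the effect of depth was not tested. Hsf3, Hspa12a and the 4 small heat-shock protein genes that were not tested had few or no counts.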
